A study of Mus musculus with 6 samples.

Results

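The genes that write, maintain and erase DNA methylation are themselves methylated DNA, and this report describes 9 of them in mouse germline and pluripotent stem cells. They are the maintenance pair Dnmt1 and Uhrf1, the de novo methyltransferases Dnmt3a and Dnmt3b with their cofactor Dnmt3l, the dioxygenases Tet1, Tet2 and Tet3, and the DNA glycosylase Tdg. The members were chosen by name, with earlier results of these data known. Each gene was taken from 5000 bp before to 5000 bp after its GRCm38 span. Every position that the authors list in that window was used, by library and direction. The members are 9 of 21887 protein-coding genes with a placed span. All 9 held at least 3 listed positions, and together they held 795 listings at 378 distinct positions out of 891636 listings in the whole series.

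The study measured 6 cultured mouse lines of the OG2 strain by reduced representation bisulfite sequencing, in which enzyme-cut, CpG-rich fragments are read after bisulfite treatment. There was 1 line of germline stem cells (GSC), and 2 independent lines of induced pluripotent stem cells (iPSC) had been made from GSC. A further 2 independent lines were germline-derived pluripotent stem cells (gPSC), and 1 line was of embryonic stem cells (ESC). No treatment, age or transgene other than the strain name is given in the labels. GSC, iPSC 1, iPSC 2, gPSC 1 and gPSC 2 each come with a hyper table, for positions more methylated than in a reference, and a hypo table, for positions less methylated; the unnamed reference is taken here to be ESC, the one sample that has no table of its own. A difference is the library's methylation minus that of the reference, in percentage points. Only positions with a q of at most 0.01 and a difference of at least 25 points are listed, and since neither read numbers nor methylation levels come with them, the depth is unknown and a position that is not listed may be unchanged or unmeasured. The p of a position compares 2 libraries, not 2 conditions, and all 5 libraries share that 1 reference.

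Dnmt1 copies methylation onto the new DNA strand after replication, and Uhrf1 brings it to half-methylated CpGs. Dnmt3a and Dnmt3b methylate bare CpGs in embryos and germ cells, and Dnmt3l, which has no catalytic activity of its own, helps them there. The Tet enzymes oxidise methylcytosine, Tdg cuts out the oxidised products, and bisulfite sequencing cannot tell methylcytosine from hydroxymethylcytosine. RNA and protein were not measured here.

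Stretches of 5 of the members are shown first, because they show how listed positions sit on the CpGs of a gene start. They come from the RefSeq promoter table on GRCm38.p6 and are read in the direction of transcription, with every listed base in capitals. The Dnmt1 stretch (chr9:20952594-20952683, minus strand, start at 20952623) and the Uhrf1 stretch (chr17:56304223-56304342, plus strand, start at 56304313) mark the positions of any library. The Tet2 stretch (chr3:133544361-133544490, minus strand, start at 133544390) marks those of gPSC 2 and the Tdg stretch (chr10:82629698-82629842, plus strand, start at 82629838) those of iPSC 2. The Tet3 stretch (chr6:83441709-83441837, minus strand, upstream of a start at 83441678) marks the positions of any library.

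Dnmt1: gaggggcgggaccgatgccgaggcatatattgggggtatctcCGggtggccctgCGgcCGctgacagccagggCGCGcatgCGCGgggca
Uhrf1: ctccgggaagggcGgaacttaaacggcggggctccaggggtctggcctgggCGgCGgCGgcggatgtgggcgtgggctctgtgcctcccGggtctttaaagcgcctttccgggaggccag
Tet2: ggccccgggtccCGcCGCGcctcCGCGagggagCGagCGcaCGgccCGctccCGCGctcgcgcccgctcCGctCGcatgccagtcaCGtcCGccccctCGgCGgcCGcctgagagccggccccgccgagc
Tdg: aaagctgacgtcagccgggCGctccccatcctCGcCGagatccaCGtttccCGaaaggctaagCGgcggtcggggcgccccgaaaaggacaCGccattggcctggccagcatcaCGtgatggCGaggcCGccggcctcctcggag
Tet3: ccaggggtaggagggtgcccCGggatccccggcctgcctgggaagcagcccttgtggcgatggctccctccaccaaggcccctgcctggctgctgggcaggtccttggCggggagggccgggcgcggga

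The capitals fall on the dinucleotide CG, often on both of its letters: the Tet2 stretch has 25 CG, of which 18 have both bases listed, and the Tdg stretch has 18, of which 10 do. A CG reads the same on either strand, so the C and the G of one CG are the cytosines of its 2 strands, and the tables list them as separate positions. In the whole 300-base promoter, Tet2 has 57 CG, as many or more than which only 0.152% of 32851 RefSeq promoters of that length hold. Dnmt1 at this start and Uhrf1 have 33 each (8.56% of promoters hold as many or more), Tdg has 26 (16.9%), and the median promoter has 7.

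At many of these CpGs the 2 bases were listed in opposite directions. Over the 9 members there were 131 such CpGs, counted per library, and they made up 262 of the 795 listings. At 123 of them (93.9%) the 2 differences cancelled to within 5 points, with a largest sum of 19.8 points, as the plot of one base against the next shows. For 60 of the CpGs the letters could be read in the promoter table, and all 60 were a C followed by a G. Most lay near gene starts: 118 of 131 (90.1%) were within 2000 bp before to 500 bp after a start, against 49 of the 533 other listings (9.19%). The median −log10 of the authors' p was lower among the paired listings than among the others in GSC (5.29 against 8.39), iPSC 1 (2.81 against 4.52), iPSC 2 (3.97 against 4.54) and gPSC 1 (4.57 against 6.57), and higher in gPSC 2 (7.92 against 5.80). Such pairs occur all over the tables, with 64446 of them among 891636 listings, 84.3% cancelling to within 5 points. Per listing they were more frequent in the members, with 131 among 795. Counts, calls and comparisons of the members are therefore given with and without them, and their part in any result beyond that was not tested.

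**Figure D1:**
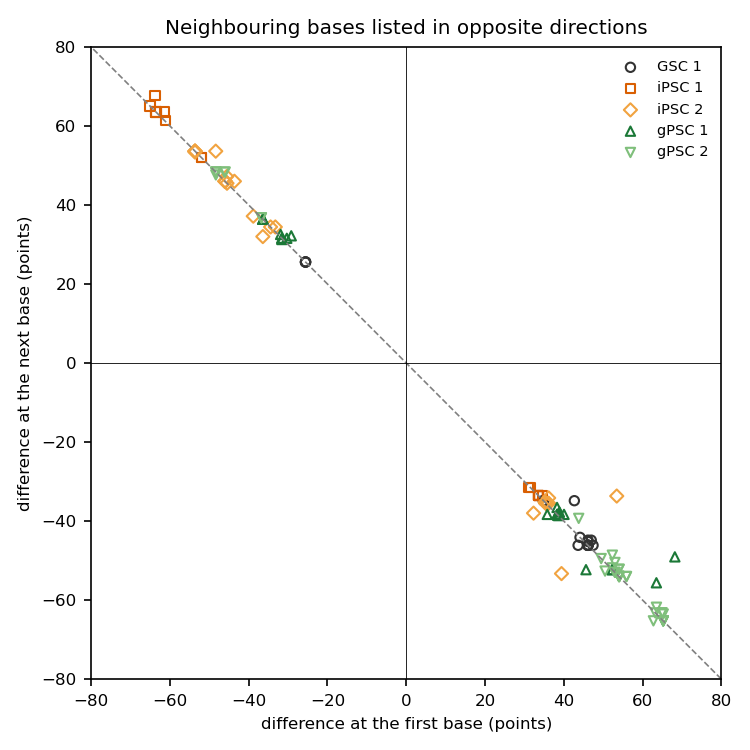
Difference from the reference at the first (lower coordinate) base against that at the next base, in percentage points, for the 131 CpGs of the 9 genes listed in opposite directions; each symbol is 1 CpG in 1 library and the dashed line marks an exact cancellation. 123 of the 131 lie within 5 points of the line.

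Counting all listings, hyper positions outnumbered hypo positions in the 9 genes in every library. GSC had 192 hyper and 32 hypo listings, iPSC 1 had 94 and 24, iPSC 2 had 102 and 48, gPSC 1 had 112 and 32, and gPSC 2 had 118 and 41. Hyper listings made up 85.7% of the member listings in GSC, against 82.9% over all listings of that library. The shares were 79.7% against 82.4% in iPSC 1 and 68% against 78.2% in iPSC 2. They were 77.8% against 82.0% in gPSC 1 and 74.2% against 87.2% in gPSC 2. Between 58.3% (iPSC 2) and 92.7% (gPSC 2) of the members' hypo listings were the other base of a hyper one. Without paired positions the counts were 173 and 13 in GSC, 74 and 4 in iPSC 1, 74 and 20 in iPSC 2, 86 and 6 in gPSC 1, and 80 and 3 in gPSC 2. So in the members GSC held the most hyper positions and iPSC 2 the most hypo positions of the 5 libraries, by both counts. Over the whole series GSC had both the most hyper listings, 211853, and the most hypo listings, 43836.

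A gene was called hyper or hypo in a library when it had at least 3 listed positions and at least 80% of them had that direction. In GSC 7 of the 9 members were hyper, where 48.5% of the 15971 genes with 3 or more listed positions were. The counts were 6 of 9 in iPSC 1 (32.7% of genes), 2 of 9 in iPSC 2 (33.4%), 5 of 9 in gPSC 1 (37.1%) and 5 of 9 in gPSC 2 (45.3%). No member was hypo in any library, where 2.72% of genes were in GSC, 2.17% and 2.38% in iPSC 1 and 2, and 1.62% and 1.44% in gPSC 1 and 2. With paired positions left out the hyper calls came to 8 in GSC (54.7% of genes), 8 and 3 in iPSC 1 and 2 (36.3% and 37.8%), and 7 and 8 in gPSC 1 and 2 (42.6% and 49.3%). The windows of the members were longer than most, with a median of 62683 bp against 34112 bp over all genes tested. Per 10 kb, the median member had 2.23 hyper positions in GSC against 1.46 for all genes, 0.968 against 0.629 in iPSC 1, 1.66 against 0.812 in iPSC 2, 1.18 against 0.836 in gPSC 1 and 2.28 against 0.834 in gPSC 2. Without paired positions the gap over all genes was smaller in iPSC 1 (0.638 against 0.503), iPSC 2 (0.861 against 0.680) and gPSC 2 (0.968 against 0.715). It was not smaller in gPSC 1, at 1.08 against 0.671. In GSC the member median stayed at 2.23, against 1.20 for all genes.

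**Figure D2:**
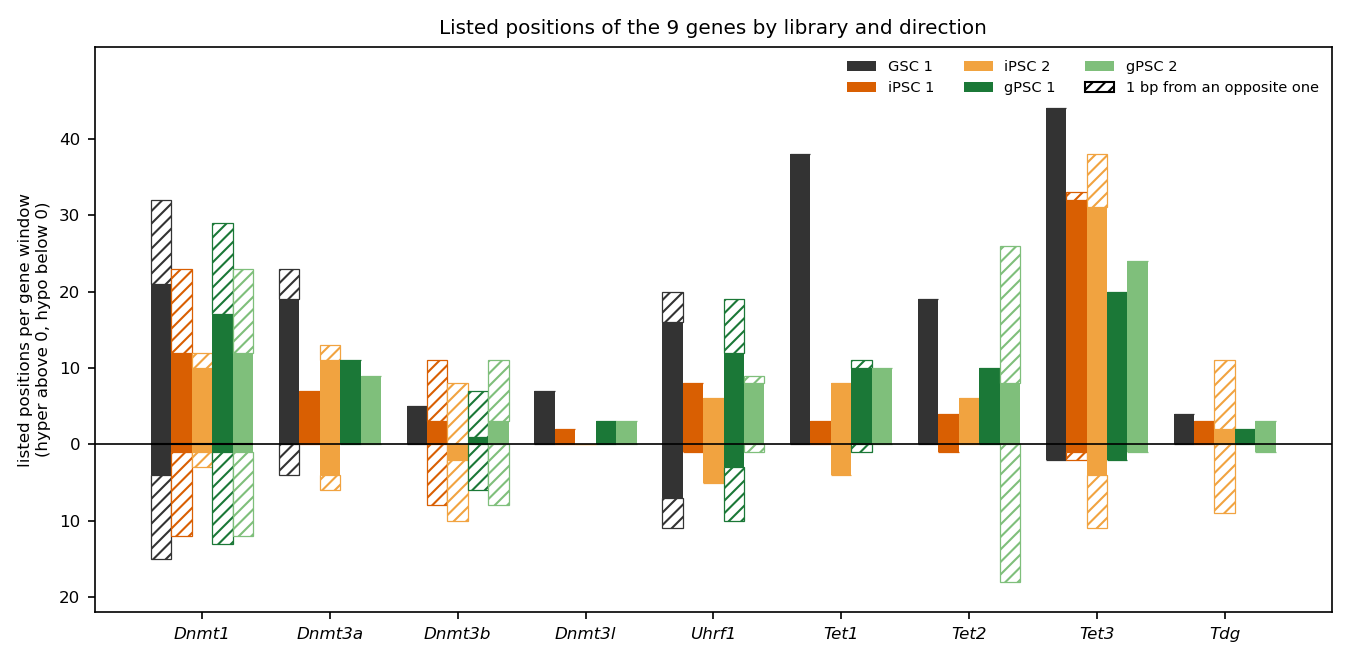
Listed positions per gene window (vertical axis; hyper above 0 and hypo below 0) for each of the 9 genes in the 5 libraries; hatched parts are positions 1 bp from one listed in the opposite direction. Tet1 reaches 38 in GSC against 3 to 11 in the lines, and the hypo bars are mostly hatched.

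Dnmt1, the maintenance methyltransferase, was more methylated than the reference inside the gene in all 5 libraries, while bases around one of its starts were listed in both directions. Hyper and hypo listings numbered 32 and 15 in GSC, 23 and 12 in iPSC 1, 12 and 3 in iPSC 2, 29 and 13 in gPSC 1, and 23 and 12 in gPSC 2. A group of 3 neighbouring positions about 23 kb into the gene (20936580, 20936668 and 20936675) was listed hyper in each library, by 79.6 to 100 points. At 20936668 the differences were 93.0 points in GSC, 91.5 and 82.5 in iPSC 1 and 2, and 89.7 and 92.9 in gPSC 1 and 2, with the authors' p from 1.1e-11 to 7.3e-08. None of the 3 bases had an opposite listing beside it.

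This start is at 20952623. RefSeq has 3 Dnmt1 starts in the table, and only the promoter of this one held listed positions. Around it, 11 CpGs in GSC, 11 in iPSC 1, 12 in gPSC 1 and 11 in gPSC 2 were listed in opposite directions on their 2 bases, and none were in iPSC 2. In these 4 libraries every first base was hyper and every second base hypo. The hyper bases of this region averaged 45.9 ± 1.10 points in GSC (SD over 11 positions of 1 library), 33.3 ± 1.02 in iPSC 1 (11 positions), 40.9 ± 8.65 in gPSC 1 (12 positions) and 64.7 ± 0.973 in gPSC 2 (11 positions). The mean of the 2 strands was 0.146 points in GSC, 0.0335 in iPSC 1, 0.914 in gPSC 1 and 0.123 in gPSC 2, so the 2 strands cancelled. One base here, 20952641, was listed hypo in all 5 libraries: −60.7 points in GSC, −56.7 and −57.0 in iPSC 1 and 2, and −49.1 and −58.7 in gPSC 1 and 2; in gPSC 1 alone its partner base was listed too, as hyper. By the call rule Dnmt1 was hyper in iPSC 2 alone, and with paired positions left out it was hyper in all 5 libraries.

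Uhrf1, the protein that guides Dnmt1 to half-methylated CpGs, had 20 hyper and 11 hypo listings in GSC, 8 and 1 in iPSC 1, 6 and 5 in iPSC 2, 19 and 10 in gPSC 1, and 9 and 1 in gPSC 2. Within the gene, about 15 kb from its outermost start, 3 positions were hyper in every library. At 56318111 the differences were 61.0 points in GSC, 44.7 and 42.2 in iPSC 1 and 2, and 64.9 and 65.3 in gPSC 1 and 2. A run of 6 hyper positions at chr17:56319085-56319211 in GSC averaged 64.3 ± 31.6 points (SD over positions), and 1 to 3 of its positions were listed in each of the other libraries.

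At the second Uhrf1 start the direction was the opposite. In the printed stretch GSC had 5 hypo positions, averaging −66.0 ± 11.2 points, and no hyper one. gPSC 1 listed the same 5 bases as hypo, from −42.6 to −84.6 points, but 3 of them had a partner listed hyper by 45.6 to 52.3 points. The iPSC lines and gPSC 2 had no listed position in it, and gPSC 2 had 1 CpG in opposite directions before it, at 56304053. Beyond the gene's end, at chr17:56325724-56325754 and before the start of the neighbouring Kdm4b, 4 CpGs were listed in opposite directions in GSC (25.6 points each way) and gPSC 1 (36.4 points each way). iPSC 2 listed the first base of the same 4 CpGs as hypo by 66.3 points and no partner. Farther on, 56325840 was hypo with no partner listed, by −71.6 points in GSC, −74.6 and −64.6 in iPSC 1 and 2, and −67.7 in gPSC 1.

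Dnmt3a, the de novo methyltransferase needed for methylation in germ cells, had 23 hyper and 4 hypo listings in GSC, 7 and 0 in iPSC 1, 13 and 6 in iPSC 2, 11 and 0 in gPSC 1, and 9 and 0 in gPSC 2. It was called hyper in all libraries but iPSC 2. The positions shared by all libraries lay far into the gene, in what the authors' annotation calls an intron. At 3907183 the differences were 85.9 points in GSC, 60.6 and 97.8 in iPSC 1 and 2, and 92.6 and 85.7 in gPSC 1 and 2. At 3907060 they were 61.6, 60.5, 44.3, 64.3 and 59.5 points in the same order. A second stretch separated the libraries: at chr12:3871815-3871919 GSC had 5 hyper positions averaging 50.2 ± 20.5 points, iPSC 2 had 2 hyper and 3 hypo positions, and the other 3 lines had none listed. The run of the gene with the most listed positions, at chr12:3806595-3806616, was 4 CpGs of GSC listed in opposite directions. They were hyper by 36.8 ± 3.92 points and hypo by −34.8, and no other library listed a position in that run. None of the 3 RefSeq promoters of Dnmt3a, 2 of them with 46 and 47 CG, held a listed position.

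Dnmt3b, the de novo enzyme that is prominent in early embryonic cells, had few positions outside 1 block. The block lies at chr2:153649702-153649736, 253 to 287 bp after the start at 153649449, where the authors' annotation places exon and promoter. In it 8 CpGs in each iPSC line, 6 in gPSC 1 and 8 in gPSC 2 were listed in opposite directions, and all 30 cancelled to within 5 points. The hyper bases averaged 60.6 ± 5.39 points and 43.3 ± 5.46 in iPSC 1 and 2, and 31.8 ± 0.479 and 45.4 ± 5.30 in gPSC 1 and 2 (SD over positions of 1 library). Here the first base was the hypo one in every case, the reverse of Dnmt1. GSC listed 1 position in the block, at 153649714, hyper by 27.6 points.

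Outside the block, GSC had 4 further hyper positions of Dnmt3b (75.0 to 100 points), iPSC 1 and gPSC 2 had 3 each, gPSC 1 had 1, and iPSC 2 had only 2 hypo positions. By the call rule Dnmt3b was hyper in GSC alone. Without paired positions it was also hyper in iPSC 1 and gPSC 2, each on 3 positions, which is the fewest that the rule accepts.

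Dnmt3l, the cofactor that works with Dnmt3a in germ cells, had 15 listings in all, every one hyper. GSC had 7, iPSC 1 had 2, iPSC 2 had none, and gPSC 1 and gPSC 2 had 3 each. Of these, 11 lay 183 to 365 bp after its outermost start, which the authors' annotation calls intron and promoter. In GSC 4 positions there averaged 67.0 ± 18.1 points. At 78042652 the differences were 90.5 points in GSC, 49.2 in iPSC 1, 60.03 in gPSC 1 and 48.6 in gPSC 2. At 78042617 they were 62.5, 31.9, 43.2 and 38.3 points in the same order. GSC was the highest of the 4 libraries at both positions. Of the 15 listings, 13 also lay in the span of the neighbouring Aire, and with those left out Dnmt3l lost its hyper calls in GSC, gPSC 1 and gPSC 2.

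Tet1, the dioxygenase that is abundant in embryonic stem cells, gave the widest gap between GSC and the pluripotent lines. Its hyper listings numbered 38 in GSC, 3 and 8 in iPSC 1 and 2, and 11 and 10 in gPSC 1 and 2, and hypo listings 0, 0, 4, 1 and 0. GSC was thus 3.45 times the highest line. Tet1 was the 1 member of 9 where GSC was at least 3 times the highest line, a rule set after its values were seen and met by 9.11% of genes.

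The excess lay in the first 25 kb of Tet1. There GSC had 27 hyper positions averaging 71.4 ± 12.3 points (SD over positions), from 49.0 to 100. In the same stretch iPSC 1 had none, iPSC 2 had 1 hyper and 2 hypo, gPSC 1 had 2 hyper and 1 hypo, and gPSC 2 had 2 hyper. In the rest of the window GSC had 11 hyper positions, and iPSC 1, iPSC 2, gPSC 1 and gPSC 2 had 3, 7, 9 and 8. The boundary at 25 kb was set after the positions were seen. All 27 GSC positions of the first stretch also lay in the span of Gm51805, an RNA gene that overlaps this end of Tet1, and without the positions in other genes' spans Tet1 had 11 hyper positions in GSC against 3, 7, 9 and 8 in iPSC 1, iPSC 2, gPSC 1 and gPSC 2. GSC was then 1.22 times the highest line, so the gap lay in the stretch that the 2 genes share. The 300-base promoter of Tet1 held no listed position in any library.

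The part of Tet1 that the libraries shared lay about 48 kb in. At 62839638 the differences were 93.8 points in GSC, 51.8 and 67.9 in iPSC 1 and 2, and 78.6 and 87.8 in gPSC 1 and 2. At 62839686 they were 89.2, 43.1, 49.7, 68.8 and 81.0 points in that order. GSC was highest and iPSC 1 lowest at both.

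**Figure D3:**
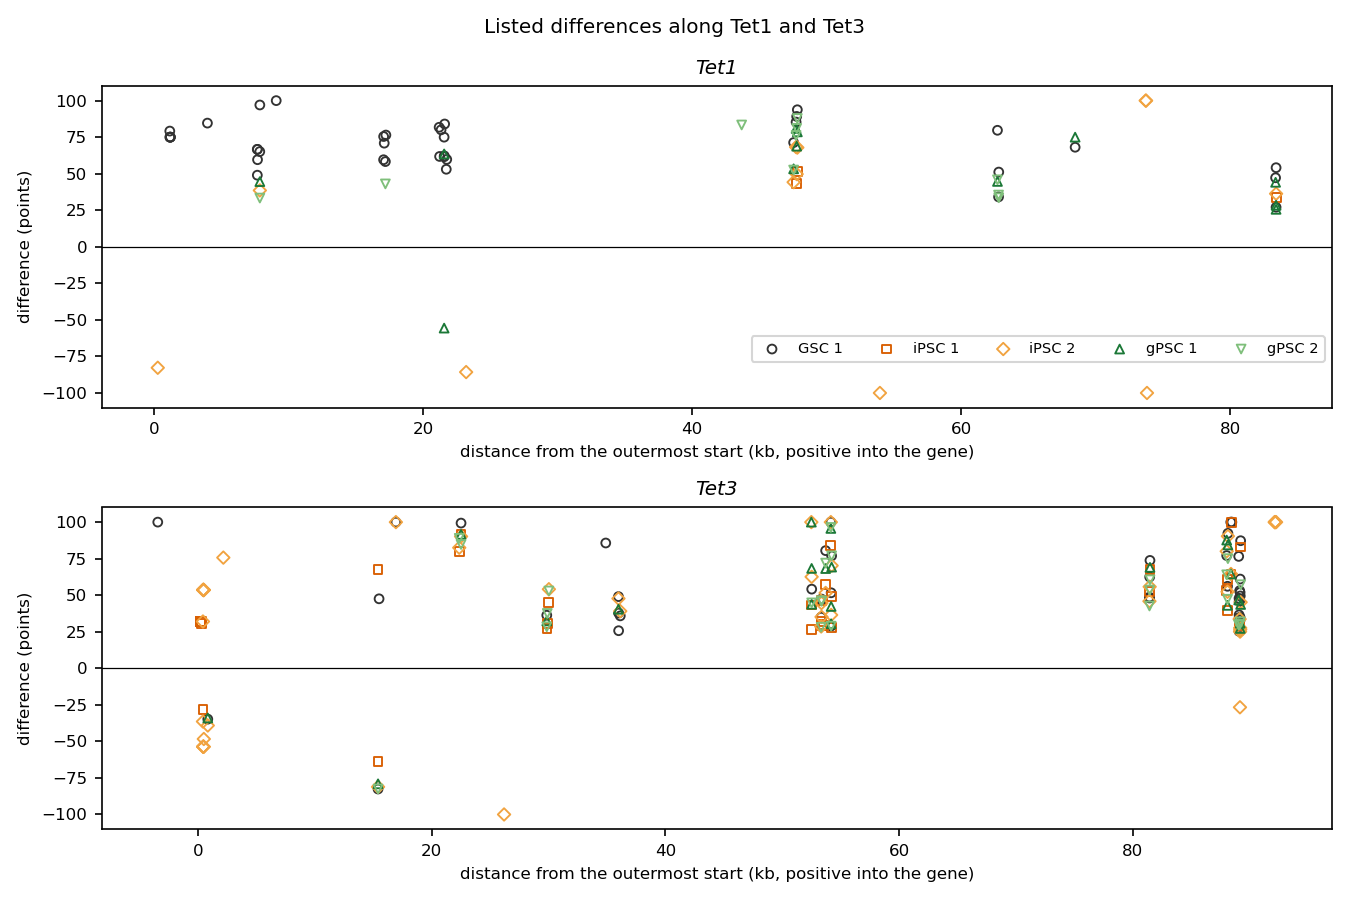
Difference from the reference (percentage points) against distance from the outermost start (kb, positive into the gene) for every listed position of Tet1 (top) and Tet3 (bottom), with 1 symbol per library. In Tet1 the first 25 kb hold 27 GSC symbols above 0 and at most 2 of any other library, while in Tet3 all 5 libraries have symbols at several places beyond 15 kb and gPSC 2 has none before that.

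Tet2, the dioxygenase best known from blood cells, had 19 hyper and 0 hypo listings in GSC, 4 and 1 in iPSC 1, 6 and 0 in iPSC 2, 10 and 0 in gPSC 1, and 26 and 18 in gPSC 2. The high count of gPSC 2 came from its start. There 18 CpGs within chr3:133544384-133544478, the ones in capitals in the printed stretch, were listed in opposite directions, hyper by 53.4 ± 1.59 points on one base and hypo by −52.8 ± 1.70 on the other. The mean of the 2 strands was 0.333 points. None of the other 4 libraries had a listed position in that block. Without it gPSC 2 had 8 hyper and 0 hypo positions, and Tet2 was then hyper in all 5 libraries.

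Towards the far end of Tet2 the libraries had positions in common. At 133468038 the differences were 100 points in GSC, 27.0 and 56.0 in iPSC 1 and 2, and 89.4 and 80.6 in gPSC 1 and 2. At 133467063 they were 80.6, 35.7, 64.2, 62.1 and 45.6 points. A run at chr3:133486189-133486297 had 10 hyper positions in GSC, averaging 44.6 ± 21.9 points, against 0 and 1 in iPSC 1 and 2, and 3 and 2 in gPSC 1 and 2. One base of that run, 133486297, went both ways: it was hyper by 49.6 points in GSC and 44.4 in gPSC 1, and hypo by −26.5 in iPSC 1.

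Tet3, the dioxygenase of the oocyte and zygote, had the most listings of the 9 genes, 177, of which 159 were hyper. Hyper listings numbered 44 in GSC, 33 and 38 in iPSC 1 and 2, and 20 and 24 in gPSC 1 and 2, and hypo listings 2, 2, 11, 2 and 1. Of its positions, 8 were listed in all 5 libraries, more than in any other member. At 83403051 the differences were 100 points in GSC, 84.2 and 100 in iPSC 1 and 2, and 95.7 and 96.3 in gPSC 1 and 2. At 83434710 they were 99.3, 91.6, 90.2, 91.6 and 84.7 points.

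Towards the far end of Tet3, at chr6:83367969-83368134, GSC had a run of 16 hyper positions averaging 46.0 ± 17.6 points. The pluripotent lines had 2 to 5 hyper positions in the same 166 bp, with means from 31.6 to 56.1 points. In a 3 kb stretch 52 to 55 kb into the gene the 5 libraries were alike, with 9, 11, 9, 8 and 8 hyper positions; this stretch was chosen after its values were seen.

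Of the 2 bases that were hypo in all 5 libraries, the one with the larger differences was 83441816, the G of the CG in capitals in the Tet3 stretch, 138 bp before the start at 83441678. It was hypo by −82.6 points in GSC, −63.8 and −81.1 in iPSC 1 and 2, and −79.0 and −82.6 in gPSC 1 and 2. Its neighbour on the same CG was listed in iPSC 1 alone, hyper by 67.7 points. The position also lies in the span of B230319C09Rik, an overlapping gene. At the outermost start of Tet3 a further 7 CpGs of iPSC 2 were listed in opposite directions, hyper by 50.5 ± 8.16 points and hypo by −50.4 ± 6.48. Nearer to that start iPSC 1 had 7 hyper positions with no opposite partner, 170 to 247 bp into the gene, averaging 31.8 ± 0.497 points. Without paired positions Tet3 was hyper in all 5 libraries, as were Dnmt1 and Tet2. The share of all genes that were hyper in all 5 libraries, with or without paired positions, is not given here.

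Tdg, the glycosylase that excises oxidised methylcytosine, had few listings in 4 libraries and many in iPSC 2. Hyper listings numbered 4 in GSC, 3 and 11 in iPSC 1 and 2, and 2 and 3 in gPSC 1 and 2, and hypo listings 0, 0, 9, 0 and 1. All 20 listings of iPSC 2 lay at the start, in the printed stretch, where 9 of its 10 marked CG were listed in opposite directions by 32.3 to 38.0 points each way. At the tenth both bases were hyper. One of them, 82629731, was listed in all 5 libraries: 42.5 points in GSC, 50.6 and 37.6 in iPSC 1 and 2, and 47.0 and 44.3 in gPSC 1 and 2. In an exon by the authors' annotation, 82644284 was hyper by 97.3 points in GSC, 36.3 in iPSC 1, 49.7 in gPSC 1 and 42.2 in gPSC 2; GSC was the highest, and iPSC 2 did not list the base.

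**Figure D4:**
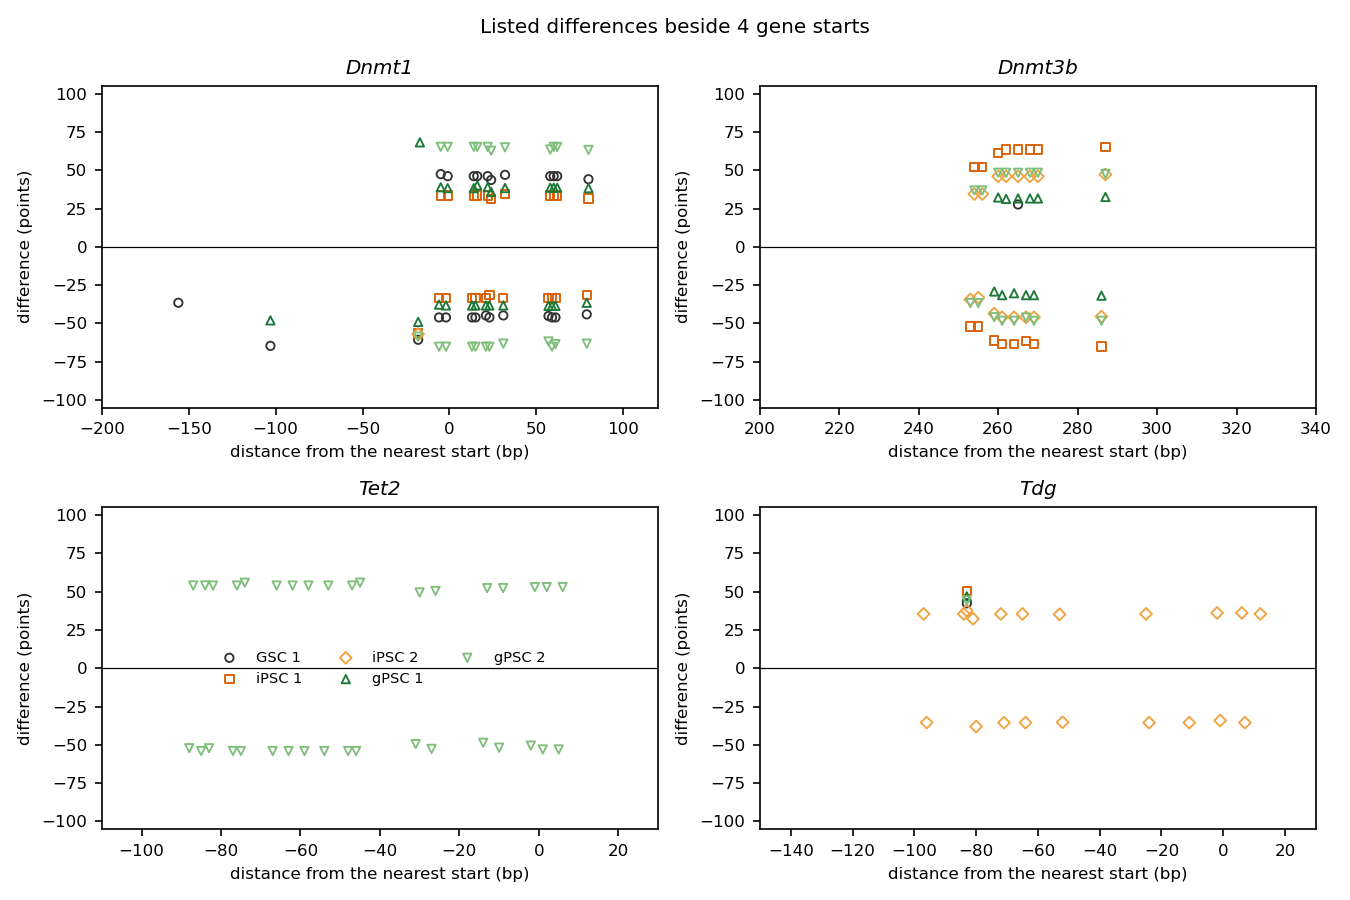
Difference from the reference (percentage points) against distance from the nearest RefSeq start (bp, positive into the gene) for listed positions at the starts of Dnmt1, Dnmt3b, Tet2 and Tdg; symbols are libraries. Each block has a row above 0 and its mirror row below 0, in 4 libraries at Dnmt1 and Dnmt3b, in gPSC 2 at Tet2 and in iPSC 2 at Tdg.

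The libraries with opposite-direction CpGs thus varied from start to start: all but iPSC 2 at Dnmt1, all but GSC at Dnmt3b, GSC at Dnmt3a, gPSC 1 and gPSC 2 at Uhrf1, gPSC 2 at Tet2, and iPSC 2 at Tdg and the outermost Tet3 start. At least 3 such CpGs were found in 3 members in GSC, 2 and 3 in iPSC 1 and 2, and 3 and 3 in gPSC 1 and 2. Over all genes tested the share was 14.6% in GSC, 9.2% and 9.58% in iPSC 1 and 2, and 12% and 8.4% in gPSC 1 and 2. Dnmt3l had none, and Tet1 had 1 (gPSC 1), which did not cancel to within 5 points.

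Of the 378 positions, 27 were listed in all 5 libraries, 25 of them hyper in each and 2 hypo in each (20952641 of Dnmt1 and 83441816 of Tet3). They were 8 in Tet3, 7 in Dnmt1, 3 in Dnmt3a, 3 in Uhrf1, 2 in Tet1, 2 in Tet2, 1 in Dnmt3b and 1 in Tdg. In contrast, 211 were listed in a single library, and 79 of these were hyper in GSC. Without paired positions 24 remained in all 5 libraries, all hyper, since both hypo bases and 153649714 of Dnmt3b had an opposite partner in at least 1 library; 138 of 251 positions were then in a single library. Since the 5 libraries share their reference, this count is a description of the tables and not of independent changes. GSC held the most listings of the whole series too, 255689 of 891636. The same counts over all listed positions are not given here.

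The iPSC and gPSC lines were compared in a two-sided exact permutation test on the number of positions per gene. With 2 lines against 2 the smallest possible p is 0.333, so no gene could pass 0.05. Both iPSC lines had fewer hyper positions than both gPSC lines at 4 members, where 13.5% of genes did: Dnmt3l, Uhrf1, Tet1 and Tet2 (exact p = 0.333 each, adjusted p = 1). At Tet1 the lines had 3 and 8 against 11 and 10, and at Uhrf1 8 and 6 against 19 and 9. At Dnmt3l they had 2 and 0 against 3 and 3, and all of these listings also lay in the span of Aire. With the positions in other genes' spans left out, Dnmt3l therefore did not separate the lines. Both iPSC lines had more at 1 member, Tet3, with 33 and 38 against 20 and 24, where 4.85% of genes did. The other 4 overlapped. Without paired positions Uhrf1 no longer separated the lines, with 8 and 6 against 12 and 8, and Dnmt3l, Tet1 and Tet2 were the 3 members with fewer in both iPSC lines (12.9% of genes). Tet3 still had more, with 32 and 31 against 20 and 24 (3.77% of genes). For hypo positions all 9 members overlapped, where in 3.68% of genes both iPSC lines were below and in 8.18% both were above; without paired positions all 9 overlapped too (2.36% and 8.53% of genes). By the exact permutation test none of the 15971 genes had an unadjusted p under 0.05.

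Among 33 partner genes of the pathway, 28 had 3 or more listed positions. In GSC 7 of the 28 were hyper, where 48.5% of all genes were, and 1 hypo (2.72%). In both iPSC lines 3 were hyper, where 20.5% of genes were, and 1 hypo (0.244%). In both gPSC lines 4 were hyper (28% of genes) and none hypo (0.232%). Of the maintenance partners, Cdca7, which anchors the remodeller Hells, was hyper in GSC (10 positions) and both gPSC lines (9 and 3). Cdca7 was also hyper in iPSC 2, with 7 hyper and 1 hypo positions, while iPSC 1 had 3 hyper and 1 hypo and was not called. Hells itself was hyper in GSC with 4 hyper and 1 hypo positions. Usp7, the deubiquitinase that stabilises Dnmt1 and Uhrf1, was hypo in both iPSC lines, with 22 hypo against 1 hyper position in iPSC 1 and 26 against 2 in iPSC 2, while gPSC 1 had 7 of each and gPSC 2 had 6 hyper alone. GSC had 36 hyper and 30 hypo positions at Usp7, 20 of its CpGs being listed in opposite directions. Uhrf2, the relative of Uhrf1, was hypo in GSC with 9 hypo and 2 hyper positions.

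Of the oxidation partners, Ogt, a sugar transferase that binds Tet proteins, was hyper in all 5 libraries with 3 to 6 positions and no hypo one. Prdm14, a repressor of the de novo enzymes, was hyper in GSC on 8 positions, and Dcaf1, an adaptor of a ubiquitin ligase, on 10 hyper against 1 hypo. Prdm14 was also hyper in gPSC 1, with 4 hyper and 1 hypo positions. It was not called in gPSC 2 (7 hyper and 3 hypo), iPSC 1 (3 and 1) or iPSC 2 (2 and 0). Of the repair and deamination genes, Neil1, a glycosylase of base excision repair, was hyper in all 5 libraries with 5 to 12 hyper positions. Parp1, which marks DNA breaks, was hyper in all 4 lines (5 to 9 hyper positions) and had 6 hyper and 6 hypo positions in GSC. Apobec1, a cytidine deaminase, had 15 hyper positions and no hypo one in GSC, and 0 to 2 hyper positions in the lines. No gene of the de novo partner or methyl donor lists was called in GSC, both iPSC lines or both gPSC lines.

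The gene whose counts over the 10 tables were most like those of Tet3 was Sh3d19, whose counts differed by a sum of 25 listings, then Arl15 with 29 and Zmat4 with 33.

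The labels were set against methylation at marker starts, from 2000 bp before to 500 bp after and without paired positions. Pou5f1, which defines pluripotent cells, had 50 hyper positions and no hypo one in GSC, and 7 to 17 hyper and 0 to 4 hypo positions in the lines. Where a line carries a Pou5f1 reporter sequence, its reads cannot be told apart here from those of the gene itself. The part of such reads in the Pou5f1 counts was not tested. Zfp42 and Tdgf1, also pluripotency markers, had 3 and 1 hyper positions in GSC and none in the lines, and Nanog had no unpaired position in any library. Of the spermatogonial stem cell markers, Foxo1 had 9 hypo positions in GSC and none elsewhere, Gfra1 had 4 in GSC and 1 to 3 in each line, and Etv5 had none in GSC and at most 1 hypo and 2 hyper in a line. Of the germ cell genes, Dazl had 2 hyper and 10 hypo positions in GSC, and 7 to 15 hyper and 0 to 2 hypo ones in the lines. Ddx4 had 2 hypo positions in GSC, 6 in gPSC 2 and at most 1 in each other line. Sycp3 had 1 hyper position in GSC against 4 to 15 in the lines. Mael had none in GSC against 3 to 8 hyper and at most 1 hypo in each line. The fibroblast gene Col1a2 had 1 hypo position in GSC. Expression of these markers was not measured. Values of the other planned markers, Gdf3, Bcl6b, Dmrt1, Thy1, Col1a1, Wt1, Sox9, Amh and Cyp17a1, are not reported here.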

How the data were processed

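DNA of 6 lines was measured by reduced representation bisulfite sequencing. The tools Bowtie2, Bismark, methylKit and GATK, with GRCm38 (mm10) as the genome, are named without versions in the submitters' processing notes. No coverage minimum or strand handling is stated in the sources used here. The authors deposited 10 tables for 5 libraries, each giving a p-value and a q-value per position, and the authors' methylation difference in percentage points. Every deposited q-value was at most 0.01 and every difference at least 25 points. Of the listed positions inside RefSeq promoter sequences, 99.9% were a C or a G.

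Positions were placed in gene windows (5000 bp each side) with the RefSeq GRCm38.p6 gene table, and starts and bases taken from its promoter table, which matched all 9 members. Paired positions are listings 1 bp from one of the opposite direction, and runs have gaps of at most 200 bp. The exact permutation test treats the independent lines as samples; p-values are Benjamini-Hochberg adjusted over all genes. Counting was tested on simulated data. Python 3.11.15, numpy 2.4.6, pandas 2.3.3 and matplotlib 3.10.9 were used. The authors' exon, intron and promoter labels follow plus-strand transcripts and are quoted for plus-strand members only.

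The members and lists were chosen with earlier results of these data known. Named were, by rule, each member's run with the most listed positions and its positions listed in the most libraries. So were up to 4 called genes of each partner list, and the 3 genes most like the member with most listings. Other positions, stretches and the factor of 3 at Tet1 were chosen after their values were seen. Alternatives covered the flank, difference, q, paired and overlapping positions, and each line left out.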

Additional observations from a re-analysis of the deposited data

How the results depend on the processing

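Of 618 hyper listings, 329 had a difference of at least 50 points; of 177 hypo listings, 81 did, 46 were left without positions 1 bp from an opposite one and 37 without those within 50 bp of one. The sum over members of iPSC minus gPSC hyper positions, −17, became −29 at a q of at most 0.001 and −9 without paired positions, and ran from −21 to −13 with each line left out; for hypo positions, −0.5, it ran from −12.5 to 11.5. Of 25 hyper calls, 25 remained and 9 were gained without paired positions; over the other settings with the same minimum number of positions, 19 to 25 remained. No setting gave a hypo call. Of 162 differences of single members under other settings, 10 changed sign.

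The line numbers name independent lines and pair nothing. With the replicate number as a block the iPSC minus gPSC differences are the same by arithmetic (Dnmt1 −8.5, Dnmt3l −2), and the smallest possible p becomes 0.5, so the block shows nothing further. Depth is unknown, so which unlisted positions were too shallow cannot be told.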
